A study of Mus musculus with 16 samples.

Results

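The miR-200 family consists of 5 mature miRNAs, the 3p arms of miR-200c, miR-141, miR-200b, miR-200a and miR-429, and was followed here through 16 small RNA libraries made from laser-cut pieces of mouse blastocysts. The 5 members were taken by name from the 1978 mature miRNA names that each library lists, without use of their values. The libraries fall into 6 groups by fragment and treatment. A polar fragment contains the inner cell mass, the cells that go on to form the embryo, and a mural fragment is trophectoderm, the outer epithelium of the blastocyst. Both fragments were taken from blastocysts paused in vivo (diapaused, day 7.5 by the EDG label, n = 3 libraries per fragment), from blastocysts given an inhibitor of mTOR (mTORi, no day given, n = 3 per fragment) and from normal blastocysts (WT, E4.5, n = 2 per fragment). The question of the series is how miRNAs change when a blastocyst pauses naturally and when mTOR inhibition pauses it.

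Several limits come with these groups. Diapaused and WT blastocysts differ in day as well as in state, so the day and the pause cannot be told apart. The sources used here do not give the mouse strain, the inhibitor and its dose, the number of embryos per library or the amount of trophectoderm left on a polar piece. Nothing says that replicates came from separate litters, so p-values measure the spread between these libraries, which may be technical. Nor do the labels say whether polar and mural libraries share embryos. Comparisons of treatments averaged over fragments count both as separate libraries, so their p-values would be too small if embryos were shared. For the 3 mural mTORi libraries the title gives no fragment and holds the words for both treatments, so they were placed by their tissue label, their treatment label and the header of their column.

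A miRNA is cut from a hairpin precursor and guides a silencing complex to messenger RNAs that pair with its seed, bases 2 to 8 from the 5′ end. The miR-200 family is known as a keeper of the epithelial state: it silences Zeb1 and Zeb2, transcription factors that shut off E-cadherin and other junction genes. Zeb1 and Zeb2 in turn bind E-box motifs in front of the miR-200 genes and repress them, which makes a double-negative loop. The trophectoderm is the first epithelium of the mouse embryo.

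The mature sequences are shown because the family is split in one way by sequence and in another by genome position. They come from RefSeq (GRCm38.p6) and are written 5′ to 3′ with the seed in capitals.
mmu-miR-200c-3p: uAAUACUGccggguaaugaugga
mmu-miR-141-3p: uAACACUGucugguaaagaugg
mmu-miR-200b-3p: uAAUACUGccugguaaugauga
mmu-miR-200a-3p: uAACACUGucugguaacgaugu
mmu-miR-429-3p: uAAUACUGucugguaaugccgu
miR-200c-3p, miR-200b-3p and miR-429-3p share the seed AAUACUG, and miR-141-3p and miR-200a-3p share AACACUG. Counted from 1 at the 5′ end of miR-200c-3p, the change to miR-141-3p within the seed is U4C. No other of the 1679 mature names in the table holds either seed. miR-200c-3p and miR-200b-3p differ at 2 of 22 compared bases (G11U and G22A), and miR-141-3p and miR-200a-3p also differ at 2 (A17C and G22U).

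The genes lie in 2 clusters that cross this division, so each cluster makes both seeds. miR-200c (chr6:124718322-124718390) and miR-141 (chr6:124717914-124717985) lie on the minus strand of chromosome 6 within 477 bases. By the GENCODE annotation both are in an intron of the annotated antisense transcript Gm15884, and miR-141 also overlaps part of an exon of Gm29008. miR-200b (chr4:156055681-156055750), miR-200a (chr4:156054896-156054985) and miR-429 (chr4:156053905-156053987) lie on the minus strand of chromosome 4 within 1846 bases. All 3 are within the processed transcript Gm13648, with miR-200b and miR-200a in its introns and miR-429 in an exon, and within introns of the protein-coding gene Ttll10.

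The hairpins of the most counted member of each cluster are shown with both mature arms in capitals, since the 5p arm was counted for one and not for the other.
miR-200c hairpin: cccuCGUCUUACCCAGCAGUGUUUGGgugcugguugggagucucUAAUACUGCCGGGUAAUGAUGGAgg
miR-200b hairpin: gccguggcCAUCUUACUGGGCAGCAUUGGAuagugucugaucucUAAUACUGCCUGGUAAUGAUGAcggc
The 300 bases around the start of Gm13648 (chr4:156059753-156060052, minus strand, RefSeq GRCm38.p6, 250 before the start and 50 after it) are shown because 3 members lie inside this transcript. The E-box CACCTG is in capitals.
Gm13648 promoter: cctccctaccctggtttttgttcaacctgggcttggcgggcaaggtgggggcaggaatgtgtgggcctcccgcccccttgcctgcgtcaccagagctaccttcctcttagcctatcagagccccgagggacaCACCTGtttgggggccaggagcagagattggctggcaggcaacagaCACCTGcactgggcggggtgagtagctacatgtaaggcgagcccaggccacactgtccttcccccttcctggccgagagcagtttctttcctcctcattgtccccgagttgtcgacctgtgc
CACCTG was searched on both strands, which also takes in its complement CAGGTG, and began at positions -118 and -72 from the start. At least 1 match was in 20.2% of the 32851 promoter windows of the same length, and 2 or more were in 2.88%. A match describes these letters and is not evidence of binding.

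The libraries were shallow, with 1744 to 20051 miRNA counts each and 122251 in all. Diapaused libraries had 9049 to 20051 counts, mTORi libraries 2184 to 4386 and WT libraries 1744 to 8366, with polar WT replicate 1 the shallowest. Short miRNA lists were read in the labelled fragments. They were chosen with earlier results of these data known, so they are no independent check of the labels. The miR-302 and miR-367 cluster of the early epiblast averaged 0.0480% of counts in polar diapaused (0.0210% to 0.0884%), 0.0305% in polar mTORi (0% to 0.0916%) and 0.272% in polar WT libraries (0.142% and 0.401%), and had 0 counts in every mural group. Its share was thus lower in diapaused and mTORi than in WT polar fragments, on 15, 2 and 14 counts, and its part in the family's differences was not tested either. The miR-322 and miR-503 list, taken as a mark of mural trophectoderm, made up 0.344% and 0.870% of polar WT libraries, against 7.06% and 7.48% of mural WT libraries. The same list held 0.696% to 1.45% in polar and 3.73% to 5.07% in mural diapaused libraries, and 0.657% to 1.92% in polar and 2.63% to 3.40% in mural mTORi libraries. It thus moved with fragment and treatment, and its part in the family's differences was not tested. 1 library stood apart. In polar mTORi replicate 3, miR-203-3p took 748 of 3501 counts (21.4%), against 0.425% and 1.60% in the other polar mTORi libraries. Differences of members between groups that include this library are given without it where a call or a sign changes. For the other epithelial miRNAs this was done in polar mTORi minus WT alone.

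The family was among the most counted miRNAs of the blastocyst, with 9911 counts or 8.11% of all counts. miR-200c-3p supplied 5777 of these (58.3%), miR-200b-3p 2450 (24.7%), miR-200a-3p 1018 (10.3%), miR-429-3p 475 (4.79%) and miR-141-3p 191 (1.93%). By counts within a library, miR-200c-3p ranked between 3 and 11 and miR-200b-3p between 7 and 33. miR-200a-3p ranked between 16 and 112, miR-429-3p between 26 and 152, and miR-141-3p between 51 and 152. Rank 152 is the tied rank of undetected names in polar WT replicate 1, where miR-429-3p and miR-141-3p had 0 counts. Counts of different miRNAs also depend on how well each sequence is ligated, so these shares describe the libraries. All 5 members passed the low-count filter, which kept 102 of the 1978 names.

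As a share of all counts in a library, the family held 8.78%, 8.56% and 8.16% in polar diapaused, 9.05%, 5.82% and 4.54% in polar mTORi, and 3.27% and 3.02% in polar WT libraries. In mural fragments it held 8.85%, 10.1% and 9.04% in diapaused, 8.28%, 7.00% and 7.91% in mTORi, and 6.92% and 5.88% in WT libraries. Polar WT libraries were the lowest of the 16, and the groups kept the order diapaused, mTORi, WT by mean in both fragments. The polar mTORi libraries were spread widely, with replicate 1 above every polar diapaused library and the other replicates below them. In bulk fragments, fewer cells that express a miRNA and less of it per cell cannot be told apart.

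After scaling to counts per 1000000 (CPM, with edgeR's TMM factors), the summed family averaged 78978 ± 8101 CPM in polar diapaused, 69810 ± 25386 in polar mTORi (SD, n = 3 each) and 30131 ± 774 in polar WT libraries (n = 2). The mural means were 116283 ± 7169 CPM in diapaused, 82281 ± 11300 in mTORi (n = 3 each) and 64081 ± 7414 in WT libraries (n = 2). By library, the polar mTORi sums were 99074, 53713 and 56642 CPM, with replicate 3 next to replicate 2. From highest to lowest the order was mural diapaused, mural mTORi, polar diapaused, polar mTORi, mural WT, polar WT. Mural diapaused libraries lay above all others, and polar WT libraries below all others. Among the 4 groups between them, each overlapped in range with the next in this order.

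**Figure D1:**
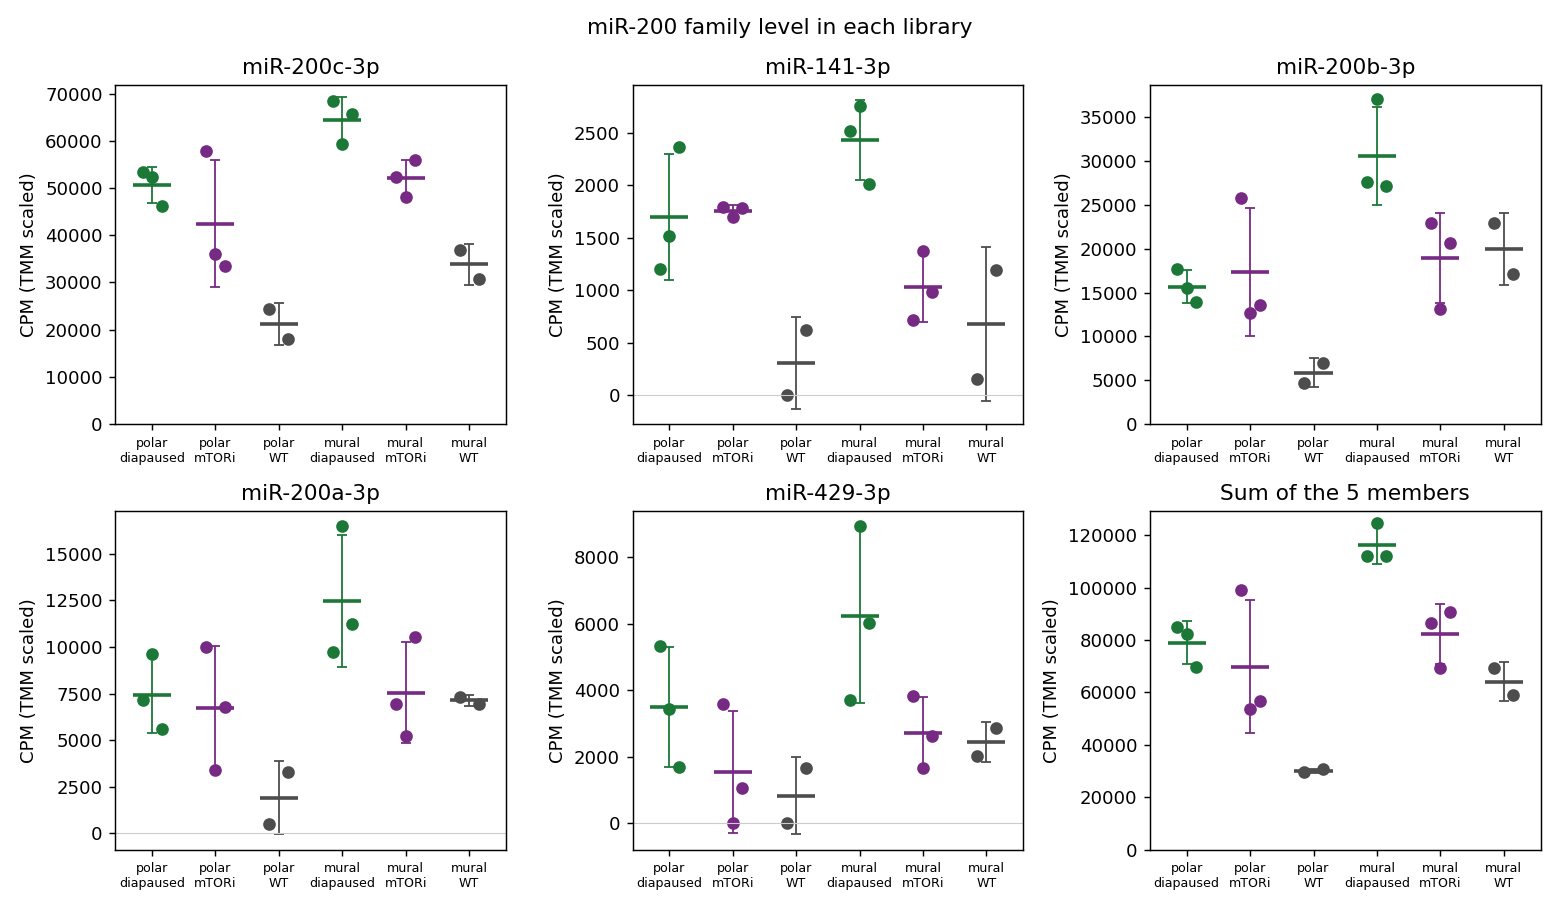
Level of each member and of their sum in CPM (TMM scaled, linear axes that differ between panels), by fragment and treatment. Points are single libraries, horizontal bars are group means and whiskers are SDs (n = 3 for diapaused and mTORi, n = 2 for WT), and the sum in polar WT libraries, 29584 and 30679 CPM, lies below all other libraries.

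Diapaused fragments were compared with WT fragments for the miR-200c and miR-141 cluster first. miR-200c-3p, the most counted member, was at 53421, 52344 and 46200 CPM in polar diapaused libraries, against 24394 and 18119 CPM in polar WT libraries. The groups were well apart, with the lowest diapaused library above the highest WT library. The log2 difference was 1.26 (SE 0.25), a 2.40-fold rise, and it passed the edgeR quasi-likelihood test (adjusted p = 0.00653). It was called in each of the 11 alternative fits, at log2 differences of 1.10 to 1.33, although those without 1 polar WT library leave a lone WT library that is assumed to vary like the other groups. In mural fragments miR-200c-3p was at 68496, 59309 and 65781 CPM in diapaused libraries, against 36921 and 30735 CPM in WT libraries, again with no overlap. This 1.91-fold rise (log2 0.93, SE 0.24) also passed (edgeR adjusted p = 0.0248). With library size alone as the scale it was 0.62 and was not called (adjusted p = 0.180), and the other alternatives that kept all libraries gave adjusted p of 0.00319 to 0.157, with RLE factors at 0.66 (0.0779) and no filter at 0.81 (0.157). Without mural diapaused replicate 1 or 3, or without either mural WT replicate, adjusted p was 0.0794 to 0.469, and without mural diapaused replicate 2 it was 0.0422.

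miR-141-3p, the rarer partner of miR-200c-3p, had 18, 15 and 25 counts in polar diapaused libraries, against 0 and 3 in polar WT libraries. The 0 in polar WT replicate 1 allows a share of up to 0.211% of that library (exact 95% bound), beside a floor of 0.172% at 3 counts. Per unit of TMM-scaled depth the count ratio of diapaused to WT was 3.70 (exact 95% interval 1.20 to 18.5, counting error only), and the edgeR test did not call it (adjusted p = 0.159). Mural diapaused libraries had 25, 45 and 24 counts and mural WT libraries 1 and 10 (log2 1.75, SE 0.64, adjusted p = 0.0887). Averaged over both fragments miR-141-3p passed the test (log2 1.85, SE 0.53, edgeR adjusted p = 0.0201). That call was lost without polar WT replicate 1 (1.42, adjusted p = 0.114) or 2 (4.09, 0.0536), without mural diapaused replicate 1 (1.78, 0.0532) and without mural WT replicate 1 (1.57, 0.0647). It was also lost without a low-count filter (1.75, 0.145). Over all leave-one-out fits that tested it, its adjusted p ran from 0.00805 to 0.114.

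Among the members of the chromosome 4 cluster, miR-200b-3p carries the same seed as miR-200c-3p. It was at 17718, 15491 and 13888 CPM in polar diapaused libraries, against 4671 and 7001 CPM in polar WT libraries. These groups did not overlap, and the 2.62-fold rise passed (log2 1.39, SE 0.38, edgeR adjusted p = 0.0311). The call was lost without a low-count filter (adjusted p = 0.0686) and without any one of the 3 polar diapaused libraries (0.0568 to 0.0920). Without polar WT replicate 1 the log2 difference was 1.02 (adjusted p = 0.199), and without polar WT replicate 2 it was 1.80 (0.0403). In mural fragments miR-200b-3p was at 27619, 37068 and 27150 CPM in diapaused and at 22900 and 17102 CPM in WT libraries. The mural libraries did not overlap either, but the log2 difference of 0.62 (SE 0.35, 95% interval -0.12 to 1.35) did not pass (adjusted p = 0.341).

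miR-200a-3p, which carries the seed of miR-141-3p, was at 7127, 9618 and 5574 CPM in polar diapaused libraries, against 519 and 3294 CPM in polar WT libraries. Its log2 difference of 1.74 (SE 0.58) did not pass (edgeR adjusted p = 0.0710), although the groups did not overlap. It was 1.01 without polar WT replicate 1 (adjusted p = 0.369) and 3.83 without polar WT replicate 2 (0.0341), and it passed with library size (1.83, 0.0426) and in DESeq2 (1.61, 0.0383). In mural fragments its diapaused libraries lay between 9742 and 16481 CPM and its WT libraries at 7322 and 6936 CPM (log2 0.81, SE 0.50, adjusted p = 0.402). miR-429-3p had 80, 34 and 18 counts in polar diapaused libraries and 0 and 8 in polar WT libraries. In mural fragments it had 37, 146 and 72 counts in diapaused and 13 and 24 in WT libraries. Neither difference of miR-429-3p passed, with log2 values of 1.71 (SE 0.91) in polar and 1.34 (SE 0.74) in mural fragments. Without polar WT replicate 1 the polar value was 0.96, and without polar WT replicate 2, which leaves a group at 0 counts, the fit gives no usable size.

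In counts, 2 of 5 members were called higher in polar diapaused fragments, against 5.88% of the 102 tested miRNAs (6 higher and 2 lower, or 6 and 7 with RLE factors, the size factors of DESeq2). In mural fragments 1 of 5 was called higher, against 7.84% of all tested (8 higher and 2 lower, or 3 and 2 under either other scaling). All 5 members had log2 differences above 0 in both fragments. Their median was 1.71 in polar fragments, where the median of all tested miRNAs was 0.10, and 0.93 in mural fragments, where that median was 0.19. The polar median of the members was 1.02 without polar WT replicate 1 and 3.83 without polar WT replicate 2. The 3.83 is the value of miR-200a-3p, which had 1 count in the lone polar WT library left. The libraries of all 5 members did not overlap in either fragment, which held in the same direction for 27.5% of tested miRNAs in polar and 32.4% in mural fragments.

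Averaged over fragments, 4 of 5 members were called higher in diapaused libraries, against 14.7% of all tested (15 higher and 4 lower, or 11 and 5 with RLE factors). They were miR-200c-3p (log2 1.10, SE 0.17, edgeR adjusted p = 0.000255), miR-200b-3p (1.00, SE 0.26, adjusted p = 0.0120), miR-141-3p and miR-200a-3p (1.28, SE 0.38, adjusted p = 0.0257). miR-429-3p had a log2 difference of 1.53 (SE 0.59, adjusted p = 0.0892), which passed with only the groups compared (1.48, 0.0390) and was 1.08 without polar WT replicate 1 and 4.44 without polar WT replicate 2, where the polar WT library left is at 0 counts. The call of miR-200c-3p held in every alternative, with adjusted p of at most 0.00637. That of miR-200b-3p was lost without polar WT replicate 1 (0.75, adjusted p = 0.0957) or mural WT replicate 2 (0.94, 0.0860). miR-200a-3p lost its call with RLE factors (1.10, adjusted p = 0.0542) and in 6 leave-one-out fits. Those left out polar diapaused replicate 2 (1.17), mural diapaused replicate 2 (1.14) or 3 (1.22), polar WT replicate 1 (0.84) and mural WT replicate 1 (1.38) or 2 (1.29), and leave-one-out adjusted p ran from 0.00620 to 0.166. No member's diapaused-minus-WT difference was shown to differ between polar and mural fragments, since 0 of 5 passed that test, 0 had an unadjusted p under 0.05 (11.8% of all tested did), and 0% of all tested passed. DESeq2's Wald test also called 0 of 5. For miR-200c-3p the difference between fragments was 0.33 (95% interval -0.38 to 1.04).

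**Figure D2:**
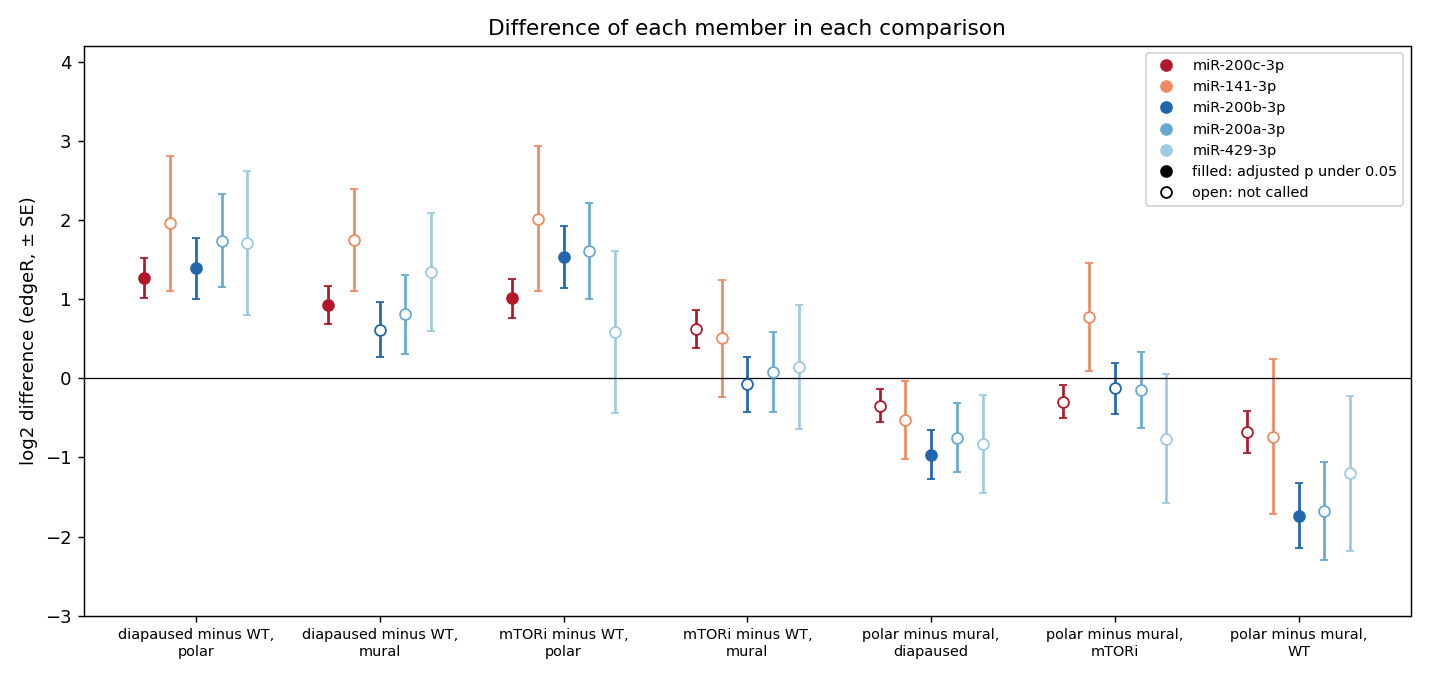
Log2 difference of each member (edgeR, whiskers are 1 SE) for diapaused and mTORi against WT within each fragment and for polar against mural fragments within each treatment. Filled points passed an adjusted p of 0.05, miR-141-3p in polar WT rests on 3 counts, and miR-200c-3p and miR-200b-3p in red and dark blue supply all the filled points.

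Fragments of mTORi blastocysts were compared with the same WT libraries, so these differences share their controls with those of diapause. miR-200c-3p was at 57942, 35950 and 33486 CPM in polar mTORi libraries, all above the polar WT libraries at 24394 and 18119 CPM. It rose 2.02-fold (log2 1.01, SE 0.25, edgeR adjusted p = 0.0188). miR-200b-3p was at 25752, 12688 and 13537 CPM in polar mTORi and at 4671 and 7001 CPM in polar WT libraries, a 2.89-fold rise (log2 1.53, SE 0.39, edgeR adjusted p = 0.0188). Replicate 1 was the high library for both. Without polar mTORi replicate 3, the library rich in miR-203-3p, the log2 differences were 1.41 (adjusted p = 0.000754) and 1.92 (adjusted p = 0.00191).

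Both calls were lost when only the polar mTORi and polar WT libraries were fitted (adjusted p = 0.140 for miR-200c-3p and 0.121 for miR-200b-3p). miR-200c-3p also lost its call without a low-count filter (0.82, adjusted p = 0.0927) and without polar WT replicate 2 (0.87, 0.0802), and miR-200b-3p lost its call without polar WT replicate 1 (1.19, 0.0949). Across leave-one-out fits adjusted p ran from 0.000754 to 0.0802 and from 0.00191 to 0.0949 for them. The polar count ratio of mTORi to WT for miR-141-3p, at 5, 4 and 5 counts against 0 and 3, was 3.97 per unit of depth (exact 95% interval 1.11 to 21.6). edgeR did not call it (log2 2.02, SE 0.91, adjusted p = 0.105), and the log2 value was 1.40 without polar WT replicate 1 and 6.67 without polar WT replicate 2, where the lone WT library is at 0. miR-200a-3p had 28, 8 and 19 counts in polar mTORi and 1 and 16 in polar WT libraries (log2 1.61, SE 0.60, edgeR adjusted p = 0.0592). DESeq2 called it (1.55, adjusted p = 0.0380), as did edgeR without polar mTORi replicate 2 (1.67, 0.0456) or polar WT replicate 2 (3.72, 0.0379), and without polar WT replicate 1 it was 0.93. miR-429-3p had 10, 0 and 3 counts in polar mTORi and 0 and 8 in polar WT libraries, and these overlapped. Its 0 in polar mTORi replicate 2 allows a share of up to 0.169% (exact 95% bound), beside a floor of 0.137% at 3 counts.

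In mural fragments no member was called between mTORi and WT libraries. miR-200c-3p was at 52272, 48039 and 55897 CPM in mural mTORi and at 36921 and 30735 CPM in mural WT libraries, without overlap. Its log2 difference of 0.62 (SE 0.24, 95% interval 0.12 to 1.13) missed the threshold (edgeR adjusted p = 0.0913) and passed when only those groups were fitted (0.58, adjusted p = 0.00179). miR-200b-3p was at 22914, 13176 and 20715 CPM in mural mTORi and at 22900 and 17102 CPM in mural WT libraries. These groups overlapped, with a log2 difference of -0.08 (95% interval -0.81 to 0.65). For miR-141-3p, miR-200a-3p and miR-429-3p the mural values also overlapped, at log2 differences of 0.50, 0.08 and 0.14. The value of miR-200a-3p turned below 0 with RLE factors (-0.05), library size (-0.03), no filter (-0.08) and DESeq2 (-0.05).

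Of the 5 members 2 were called higher in polar mTORi fragments, against 12.7% of all tested miRNAs (13 higher and 10 lower, or 11 and 15 with library size). In mural mTORi fragments edgeR called 0 of 5, with 1 at an unadjusted p under 0.05, and DESeq2 called 0. The background there was 11.8% called (6 higher and 6 lower, or 4 and 7 with RLE factors) and 27.5% at an unadjusted p under 0.05. Libraries lay apart with mTORi higher for 4 of 5 members in polar fragments (21.6% of tested miRNAs) and for 1 of 5 in mural fragments (20.6%). Averaged over fragments 2 of 5 were called higher, against 15.7% of all tested (16 higher and 17 lower, or 11 and 19 with library size). These were miR-200c-3p (log2 0.82, SE 0.17, edgeR adjusted p = 0.00229) and miR-200b-3p (0.73, SE 0.26, adjusted p = 0.0416). The first held in all 16 alternatives, with adjusted p of at most 0.0396. The second was lost without polar mTORi replicate 1 (0.50) or 2 (0.71), polar WT replicate 1 (0.52) or 2 (0.90) and mural WT replicate 1 (0.85) or 2 (0.59), with leave-one-out adjusted p of 0.00705 to 0.189. It was also lost with library size, without a filter, with only the groups compared and with a replicate block (0.0515 to 0.341).

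Members had a median log2 difference of 1.53 in polar and 0.14 in mural fragments, where the medians of all tested miRNAs were 0.18 and -0.06. The polar median was 1.11 without polar WT replicate 1 and 3.72 without polar WT replicate 2, and the mural median ranged from 0.15 to 0.37 when 1 mural library was left out. The 3.72 is the value of miR-200a-3p, which had 1 count in the lone polar WT library left. The largest gap between fragments was that of miR-200b-3p, whose mTORi-minus-WT difference was higher in polar than in mural fragments by 1.61 (SE 0.52, 95% interval 0.52 to 2.70, unadjusted p = 0.00627). Adjusted over all tested miRNAs it did not pass (edgeR adjusted p = 0.213), and over the alternatives its adjusted p ran from 0.0570 to 0.599. 0 of 5 members passed this test in edgeR, as did 0% of the tested miRNAs, and DESeq2 also called 0 of 5. At an unadjusted p under 0.05 were 1 of 5 members and 13.7% of all tested.

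Diapaused and mTORi fragments were then set against each other. In polar fragments their libraries overlapped for every member, while 32.4% of tested miRNAs did not overlap. The log2 differences were 0.25 for miR-200c-3p (95% interval -0.19 to 0.70), -0.06 for miR-141-3p (-1.31 to 1.18), -0.14 for miR-200b-3p (-0.81 to 0.52), 0.13 for miR-200a-3p (-0.84 to 1.11) and 1.13 for miR-429-3p (-0.48 to 2.73). With library size the values of miR-141-3p and miR-200b-3p turned to 0.21 and 0.10. Without polar mTORi replicate 3 they were -0.16 for miR-200c-3p, -0.32 for miR-141-3p, -0.57 for miR-200b-3p, -0.14 for miR-200a-3p and 0.63 for miR-429-3p, with none called. In mural fragments diapaused libraries had the higher mean for all 5. miR-200c-3p, miR-141-3p and miR-200b-3p did not overlap there, as was so in this direction for 29.4% of tested miRNAs. The mural log2 differences were 0.31 (95% interval -0.13 to 0.75), 1.24 (-0.01 to 2.50) and 0.69 (0.04 to 1.35) for those 3. For miR-200a-3p and miR-429-3p they were 0.73 (-0.21 to 1.68) and 1.20 (-0.23 to 2.62).

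edgeR called 0 of 5 members between the treatments in either fragment, with 0 in polar and 1 in mural fragments at an unadjusted p under 0.05, and DESeq2 also called 0 in both. The background was 15.7% called and 31.4% at an unadjusted p under 0.05 in polar (8 higher and 8 lower, or 6 and 10 with RLE factors) and 0.980% and 25.5% in mural fragments (1 higher and 0 lower, or 1 and 4 with RLE factors). In mural fragments the median of all tested miRNAs was itself 0.41, beside 0.73 for the members.

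Polar fragments were then compared with mural fragments within each treatment. In WT blastocysts miR-200b-3p was at 4671 and 7001 CPM in polar and at 22900 and 17102 CPM in mural libraries. Polar libraries were far below mural libraries, and the log2 difference of -1.74 (SE 0.41) passed (edgeR adjusted p = 0.0114). miR-200a-3p was at 519 and 3294 CPM in polar and at 7322 and 6936 CPM in mural WT libraries (log2 -1.68, SE 0.62, adjusted p = 0.0793). miR-200c-3p, at 24394 and 18119 CPM in polar and 36921 and 30735 CPM in mural WT libraries, differed less (-0.68, SE 0.27, adjusted p = 0.0983). miR-429-3p had 0 and 8 counts in polar and 13 and 24 in mural WT libraries. The count ratio of polar to mural WT for miR-141-3p was 0.594 per unit of depth, from 3 and 11 counts (exact 95% interval 0.107 to 2.25). The call of miR-200b-3p was lost without polar WT replicate 1 (-1.57, adjusted p = 0.0559) or mural WT replicate 1 (-1.54, adjusted p = 0.0921), and its leave-one-out adjusted p ran from 0.0106 to 0.0921.

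In diapaused blastocysts miR-200b-3p was again lower in polar fragments, at 17718, 15491 and 13888 CPM against 27619, 37068 and 27150 CPM in mural fragments (log2 -0.96, SE 0.31, edgeR adjusted p = 0.0354). The call was lost without any one of the 6 libraries, when adjusted p was 0.0656 to 0.183 at log2 differences of -1.01 to -0.75. It was also lost with RLE factors (-0.82, adjusted p = 0.0517), without a low-count filter (-0.89, 0.103) and with library size (-0.50, 0.232). Library size shifted the median of all tested miRNAs in this comparison to 0.58, against 0.10 with TMM factors, and turned the value of miR-200c-3p to 0.12 where TMM gave -0.35. Relative to that median the members stayed lower in polar fragments, with a median of -0.30 under library size. In mTORi blastocysts no member was called, and the libraries of 4 of the 5 overlapped. Without polar mTORi replicate 3 the log2 difference of miR-200b-3p turned to 0.0827, again not called. The exception, in a direction that 13.7% of tested miRNAs shared, was miR-141-3p, at 5, 4 and 5 counts in polar and 3, 5 and 3 in mural mTORi libraries. Its polar CPM of 1692 to 1788 lay above the mural 716 to 1372 CPM (log2 0.78, SE 0.69, adjusted p = 0.580).

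The polar-minus-mural calls were 1 of 5 lower in WT (background 6.86%, with 4 higher and 7 lower) and 1 of 5 lower in diapaused fragments (background 13.7%, with 5 higher and 14 lower, or 13 and 2 with library size). In mTORi fragments edgeR called 0 of 5, with 0 at an unadjusted p under 0.05, and DESeq2 called 0 (background 4.90% called, with 3 higher and 2 lower, or 3 and 1 with library size, and 18.6% at an unadjusted p under 0.05). Averaged over treatments 3 of 5 were lower in polar fragments, against 14.7% of all tested miRNAs (13 higher and 15 lower, or 16 and 9 with library size). miR-200b-3p (log2 -0.94, SE 0.20, edgeR adjusted p = 0.00199) held in every alternative fit, with adjusted p of at most 0.0125. miR-200c-3p (-0.44, SE 0.13, adjusted p = 0.0190) was lost with library size (-0.25, 0.197), without a filter (-0.44, 0.0721) and without mural WT replicate 1 (-0.39, 0.101). miR-200a-3p (-0.86, SE 0.30, adjusted p = 0.0397) had leave-one-out adjusted p of 0.00366 to 0.0988. Its call was lost without polar diapaused replicate 1 (-0.84) or 3 (-0.80), mural diapaused replicate 2 (-0.76) or 3 (-0.85), mural mTORi replicate 1 (-0.85) or 3 (-0.76), polar WT replicate 1 (-0.74) and mural WT replicate 1 (-0.84) or 2 (-0.90). It was also lost with RLE factors (-0.79, 0.0502), library size (-0.70, 0.0804), no filter (-0.85, 0.0506) and a replicate block by number (-0.86, 0.0501), and kept with a block by treatment and number (-0.91, 0.0146). Non-overlap with polar lower held for 4 of 5 members in WT (25.5% of tested miRNAs) and for 3 of 5 in diapaused fragments (23.5%). The members' medians were -1.20 in WT, -0.75 in diapaused and -0.15 in mTORi fragments, where all tested miRNAs had medians of 0.03, 0.10 and 0.09. The members' median was -3.96 without polar WT replicate 2, -0.44 without mural diapaused replicate 2 and -0.57 without polar mTORi replicate 1 for the 3 treatments in that order. The -3.96 is the value of miR-200a-3p, which had 1 count in the lone polar WT library left.

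The share of the family that came from each cluster was compared within libraries, which needs no scaling between them. The miR-200c and miR-141 cluster supplied 64.4%, 65.4% and 69.6% of family counts in polar diapaused, 60.3%, 70.1% and 62.3% in polar mTORi, and 82.5% and 61.1% in polar WT libraries. In mural fragments it supplied 63.4%, 49.8% and 60.4% in diapaused, 61.2%, 71.2% and 62.7% in mTORi, and 53.5% and 54.3% in WT libraries. The chromosome 6 cluster thus exceeded the chromosome 4 cluster in 15 of 16 libraries, the exception being mural diapaused replicate 2 with 1013 and 1020 counts. The highest share, in polar WT replicate 1, rests on 57 family counts.

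**Figure D3:**
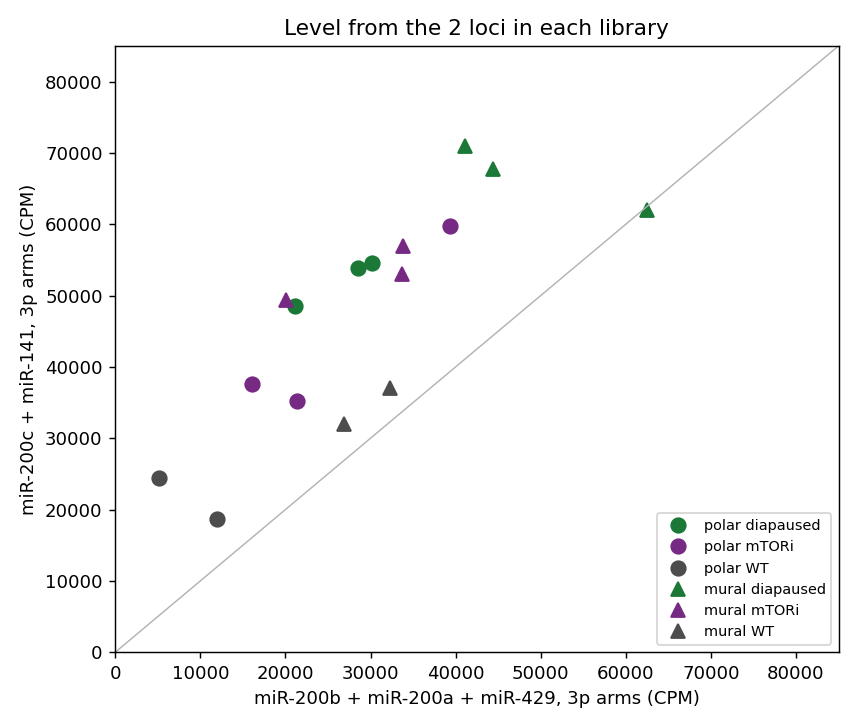
Summed CPM of the chromosome 6 members (vertical axis) against the chromosome 4 members (horizontal axis) in the 16 libraries, with circles for polar, triangles for mural fragments, colours for treatments and a grey line of equality. All points but that of mural diapaused replicate 2, on the line, lie above it, and the polar WT points are nearest the origin.

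As a log2 ratio of the chromosome 6 to the chromosome 4 cluster, polar exceeded mural fragments by 0.55 on average within treatments. The two-sided exact permutation test within treatments gave p = 0.0525 over 2400 arrangements, or 0.42 adjusted over 8 such tests. The test rearranged libraries freely within a treatment and used no pairs. By treatment the polar-minus-mural difference was 0.53 in diapaused, -0.05 in mTORi and 1.19 in WT fragments. Between same-numbered libraries the difference was 0.0665, 0.92 and 0.59 in diapaused, -0.0529, -0.0792 and -0.0275 in mTORi, and 1.98 and 0.40 in WT fragments. No difference between treatments passed. Diapaused minus WT was -0.09 (exact permutation p = 0.80), mTORi minus WT 0.05 (p = 0.88) and diapaused minus mTORi -0.15 (p = 0.525), each 0.88 when adjusted. The smallest possible p was 0.01 for each comparison with WT, so neither could pass on its own after adjustment over 8 tests. Within mural fragments the 3 mTORi libraries, at 61.2% to 71.2%, lay above the 2 WT libraries (log2 ratio higher by 0.67), while in polar fragments the same difference was -0.57. With 3 libraries against 2, neither fragment alone can reach p of 0.05. Without polar WT replicate 1 the diapaused-minus-WT value was 0.29, and over all leave-one-out sets it ran from -0.47 to 0.29.

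The seed groups were compared in the same way. The AAUACUG members (miR-200b-3p, miR-200c-3p and miR-429-3p) made up 86.5% to 90.2% of family counts in polar diapaused, 84.9% to 90.6% in polar mTORi, and 87.3% and 98.3% in polar WT libraries. In mural fragments they made up 84.6% to 89.1% in diapaused, 87.3% to 91.2% in mTORi and 86.2% and 89.2% in WT libraries. All libraries but one lay between 84.6% and 91.2%. The one above, polar WT replicate 1, had 56 counts of that group and 1 of the AACACUG group. None of the 4 comparisons of this ratio passed, with exact permutation p from 0.34 to 0.666 and 0.88 when adjusted. The diapaused-minus-WT log2 ratio of -0.55 became 0.08 without polar WT replicate 1.

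**Figure D4:**
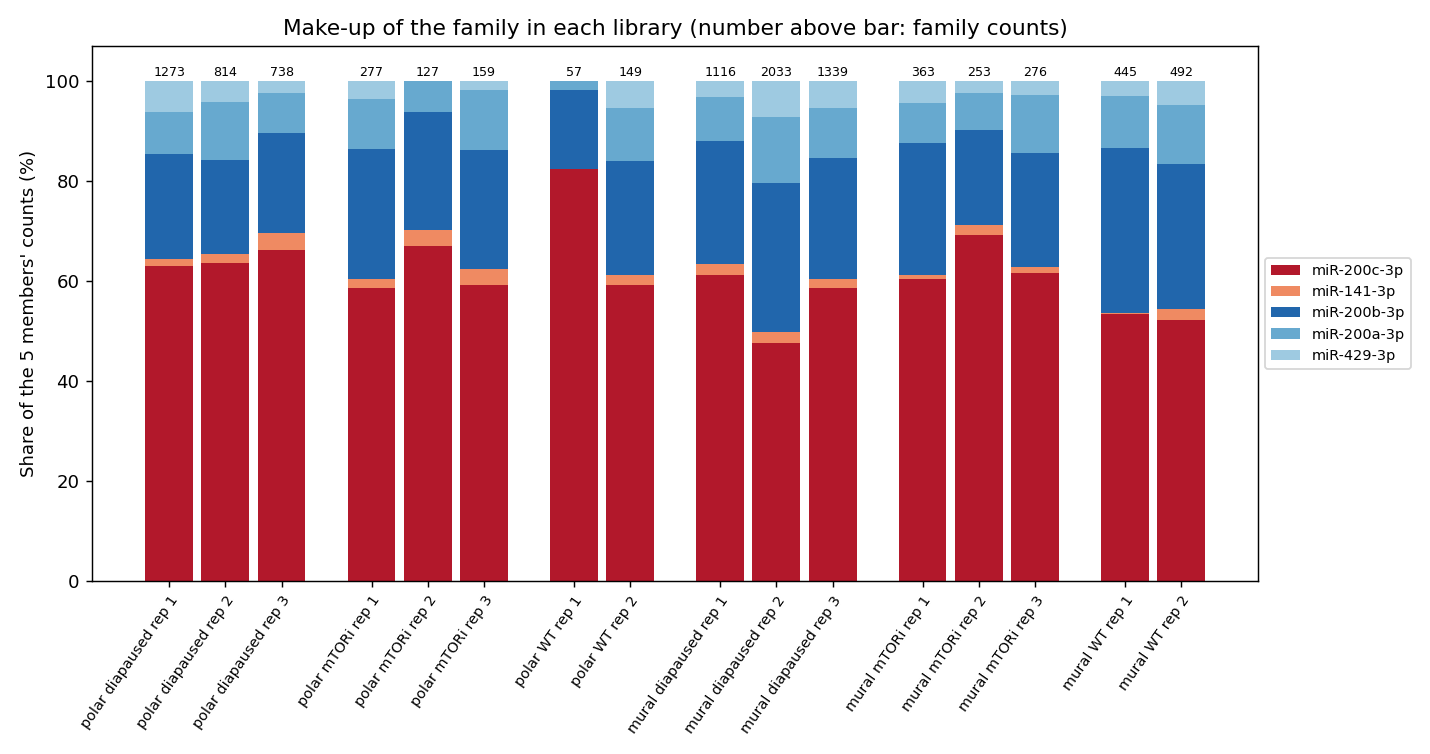
Share of each member in the family's counts (vertical axis, %) for each of the 16 libraries, with the number of family counts above each bar. Red shades are the chromosome 6 cluster and blue shades the chromosome 4 cluster, and the red part ranges from 49.8% to 82.5%.

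Within clusters the partners were unequal. miR-141-3p made up 2.22% ± 1.04 of family counts in polar diapaused, 2.70% ± 0.775 in polar mTORi (SD, n = 3 each) and 1.01% ± 1.42 in polar WT libraries (n = 2), beside 64.3% ± 1.75, 61.5% ± 4.70 and 70.8% ± 16.5 for miR-200c-3p. In mural fragments miR-141-3p made up 2.08% ± 0.251 in diapaused, 1.30% ± 0.603 in mTORi and 1.13% ± 1.28 in WT libraries. On chromosome 4 the order miR-200b-3p, miR-200a-3p, miR-429-3p held in the mean of every group. miR-200b-3p ranged between group means of 19.3% in polar WT and 31.1% in mural WT libraries.

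The opposite arms of the hairpins were rare. The 5 hairpins together gave 121 counts of their 5p arms, with 89 of miR-200b-5p, 17 of miR-200a-5p, 15 of miR-141-5p, and 0 of miR-200c-5p and miR-429-5p. The 0 beside 5777 counts of miR-200c-3p allows a 5p share of up to 0.0638% of that hairpin (exact 95% bound), and the 5p share of the miR-200b hairpin was 3.51% (2.82% to 4.30%). For miR-200b the 5p share was 4.07% in polar diapaused (24 counts), 0.709% in polar mTORi (1 count) and 0% in polar WT libraries (0 counts beside 43 of the 3p arm). In mural fragments it was 2.51% in diapaused (31 counts), 8.41% in mTORi (19 counts) and 4.61% in WT libraries (14 counts). The mural mTORi value rests on replicate 3, which had 14 counts of miR-200b-5p and 63 of miR-200b-3p (18.2%), beside 3.03% and 4% in replicates 1 and 2.

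Across the 16 libraries the members varied together to unequal degrees. Pearson's r of log2 CPM was 0.91 between miR-200b-3p and miR-200a-3p, 0.85 between miR-200a-3p and miR-429-3p on chromosome 4, and 0.77 between miR-200b-3p and miR-429-3p there. It was 0.82 between miR-200c-3p and miR-200b-3p, on different chromosomes with 1 seed, and 0.60 between miR-200c-3p and its cluster partner miR-141-3p. These values are descriptions over libraries that share group, depth and scaling, and miR-141-3p had 0 to 45 counts per library. Outside the family, the tested miRNAs most like its summed level over the 16 libraries were miR-30d-5p (r = 0.87, Spearman's rho 0.88), miR-15a-5p (0.81, 0.78), miR-10b-5p (0.79, 0.66), miR-378a-3p (0.77, 0.79) and miR-10a-5p (0.74, 0.58). Of these, miR-15a-5p was near the floor in polar WT libraries, at 309 ± 437 CPM beside a group floor of 442 CPM. miR-30d-5p averaged 13425 ± 1512 CPM in polar diapaused, 11493 ± 4602 in polar mTORi and 4753 ± 849 in polar WT libraries. Its mural means were 23219 ± 2338 CPM in diapaused, 21173 ± 2289 in mTORi and 7009 ± 442 in WT libraries. miR-10b-5p departed from the family in its order, with 83681 ± 13096 CPM in mural diapaused and 167940 ± 12323 in mural mTORi libraries (n = 3 each).

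Other miRNAs known from epithelia were read beside the family, from a list of 10 names of which 4 were tested. miR-182-5p and miR-183-5p come from a cluster known from sensory epithelia, and miR-203-3p and miR-205-5p are known from stratified epithelia such as skin. None of the 4 was called between diapaused and WT libraries by edgeR in either fragment, and their medians were -0.02 in polar and -0.15 in mural fragments. In polar mTORi against polar WT fragments edgeR called 13 of the 102 tested miRNAs higher and 10 lower. Among them miR-203-3p (log2 4.61, SE 1.19, adjusted p = 0.0188) and miR-205-5p (4.24, SE 1.34, adjusted p = 0.0287) were higher and miR-182-5p lower (-0.95, SE 0.31, adjusted p = 0.0327). Without polar mTORi replicate 3 none of these was called, at 1.52 (adjusted p = 0.0630), 1.54 (0.270) and -0.45 (0.256) for the 3 in that order. Most counts of the higher pair came from replicate 3, with 748 counts of miR-203-3p beside 13 and 35 in replicates 1 and 2, and 156 of miR-205-5p beside 9 and 5. It was also among the 2 polar mTORi libraries with the lower family share (4.54%). In averaged mTORi minus WT, miR-203-3p and miR-205-5p were called higher, with miR-183-5p (-1.02, edgeR adjusted p = 0.0277) and miR-182-5p (-0.59, 0.0461) lower. Of the 102 tested, 16 were higher and 17 lower. Polar diapaused minus mTORi called miR-203-3p and miR-205-5p lower and miR-183-5p higher (1.28, 0.0492), against 8 higher and 8 lower. Polar minus mural mTORi called miR-203-3p higher (3.50, 0.0466), against 3 higher and 2 lower. The averaged, diapaused-minus-mTORi and polar-minus-mural calls all include polar mTORi replicate 3 and are not given without it. miR-203-3p held 0.425% and 1.60% of counts in polar mTORi replicates 1 and 2, beside 0.630% to 0.980% in mural mTORi libraries.

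Markers of cells that a dissected blastocyst could carry were summed per library. Of 9 stromal and muscle miRNAs, 3 were detected at all, and their summed share was 0.0316% to 0.165% in diapaused, 0.0573% to 0.321% in mTORi and 0.0466% to 0.101% in WT libraries. The 5 erythroid miRNAs reached at most 0.166% in diapaused and 0.275% in mTORi libraries, and their share in WT libraries was 2.43% in polar replicate 2 and 0.0956% to 0.115% in the others. Leukocyte miRNAs (5 of 5 detected) held 0.00499% to 0.0828% in diapaused, 0.0228% to 0.366% in mTORi, and 0% to 0.344% in WT libraries. The family's low share in polar WT was 3.02% in replicate 2, with 2.43% erythroid counts, and 3.27% in replicate 1, with 0.115%. The list of early embryonic cells had 5 names, all detected, the 3p arms of miR-291a, miR-292a, miR-293, miR-294 and miR-295. They held 18.65% to 25.0% in diapaused, 16.5% to 23.0% in mTORi and 20.7% to 24.1% in WT libraries. Their 5p arms were not in the list, and miR-292a-5p alone averaged 201807 CPM over the 16 libraries.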

How the data were processed

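Small RNA was measured in 16 laser-cut blastocyst fragments with a kit that adds unique molecular identifiers, 12 to 20 PCR cycles, no size selection and reads of 75 bases, per the labels' protocols. The deposited files hold raw counts per mature miRNA name, 1 file per library, and the submitters' processing notes name GRCm38. The sources used here give neither the aligner, the counter and the annotation version nor whether molecular identifiers were collapsed, so intervals and floors (3 counts) cover counting error only. miRNAs with near-identical sequences, such as miR-200c-3p and miR-200b-3p, could share reads if mismatches were allowed.

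Counts were fitted with edgeR 4.0.16 (quasi-likelihood, TMM, a mean per group over all 16 libraries, R 4.3.3). The filter (filterByExpr, minimum count 10, minimum total 15) kept 102 names, which held 92.8% to 97.6% of each library. Calls are Benjamini-Hochberg adjusted p under 0.05 over those names within a comparison. Log2 CPM used a prior count of 2. Ratios within libraries used a pseudocount of 0.5 and exact permutation within strata. The edgeR fit of polar diapaused minus WT and the permutation test were tested on simulated data. At a simulated log2 difference of 1 the edgeR fit called 1 of 5 names, with a median fitted value of 1.71. It called 0 of 8 at -1, 6 of 10 at 2, 5 of 7 at -2 and 1 of 62 at 0. In this simulation a difference near 1 was thus seldom called, on few names. That need not hold for a highly counted member, and miR-200c-3p was called at 0.93 in mural diapaused minus WT. Alternatives were DESeq2 1.42.0, other scaling, no filter, fitting only the groups compared, replicate blocks, another pseudocount, 1 member per ratio term, and leaving out each library. A fit without 1 WT library leaves a lone one, assumed to vary like the other groups. The fit of other epithelial miRNAs without polar mTORi replicate 3 was added after seeing the data.

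The text names all 5 members, their 5p arms, the 5 miRNAs most correlated with their sum, and the tested miRNAs of a list of other epithelial miRNAs. No values were used to pick the members, but earlier results of these data were known when they and the lists were chosen. Replicate numbers come from the labels, which state no pairing. Same-numbered polar and mural libraries correlated in their deviations from group means at 0.110, -0.011 and 0.364 in diapaused, 0.159, 0.112 and 0.183 in mTORi, and 0.307 for both in WT blastocysts. The numbers were taken to pair mTORi fragments alone, where all 3 values were above 0.1, which does not establish a pairing. Differently numbered diapaused libraries reached 0.176 and 0.172. WT has 2 pairs only, and with 2 libraries per group their values are equal by construction.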

Additional observations from a re-analysis of the deposited data

How the results depend on the processing

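miR-141-3p had 0 to 45 counts per library, and its leave-one-out ranges and those of miR-429-3p are given below. The number of members called was 2 in polar diapaused against WT fragments, 3 with library size or DESeq2, 1 without a filter and 1 to 3 when leaving out a library. In mural fragments it was 1, but 0 with RLE factors, library size or no filter, and 0 to 1 when leaving out a library. Averaged over fragments it was 4, 5 with only the groups compared, 3 with RLE factors or no filter, and 1 to 4. For mTORi against WT it was 2 in polar fragments, 0 with only the groups compared, 1 without a filter, 3 with DESeq2, and 1 to 3 when leaving out a library. In mural fragments it was 0, and 1 with only the groups compared. Averaged it was 2, but 1 with library size, no filter, only the groups compared or the replicate block by number, and 1 to 2. For polar against mural WT fragments it was 1, but 3 with DESeq2, 2 with the replicate block by treatment and number, and 0 to 2. In diapaused fragments it was 1, but 0 with RLE factors, library size or no filter, and 0 in every leave-one-out fit. Averaged it was 3, but 2 with RLE factors or the replicate block by number, 1 with library size or no filter, and 1 to 4. In mTORi fragments, where the numbers were taken to pair libraries though the labels state no pairing, the replicate block left 0 members called.

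The log2 ratio of the clusters for diapaused minus WT was 0.0864 with 1 member per cluster, and -0.47 to 0.29 when leaving out a library. Leave-one-out ranges were -0.33 to 0.44 for mTORi minus WT and 0.30 to 0.81 for polar minus mural. For the seed groups they were -1.17 to 0.0771, -1.05 to 0.19 and -0.0693 to 0.76 for the same 3 comparisons.

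Uncalled members changed sign in some fits. Other settings reversed miR-200a-3p in mural mTORi minus WT (-0.0491 with RLE factors, -0.0307 with library size, -0.0796 without a filter, -0.0482 with DESeq2). Library size reversed miR-200c-3p in diapaused polar minus mural (0.12), miR-141-3p in averaged polar minus mural (0.00624), and miR-141-3p (0.21) and miR-200b-3p (0.10) in polar diapaused minus mTORi. No filter gave 0.0494 and 0.0105 for those last values, and fitting only the groups compared gave -0.00908 for miR-200c-3p in mural diapaused minus mTORi. The cause was not tested. Leave-one-out ranges that crossed 0 were, for mTORi minus WT, -0.88 to 6.48 (polar miR-429-3p), -0.10 to 0.50 (mural miR-429-3p), -0.34 to 0.25 (mural miR-200b-3p), -0.0211 to 0.37 (mural miR-200a-3p), -0.21 to 2.51 (mural miR-141-3p) and -0.39 to 3.27 (averaged miR-429-3p). For polar minus mural they were -5.54 to 1.22 (WT miR-141-3p), -0.55 to 0.16 (mTORi miR-200b-3p), -0.57 to 0.19 (mTORi miR-200a-3p) and -1.82 to 0.50 (averaged miR-141-3p). For polar diapaused minus mTORi they were -0.32 to 0.18 (miR-141-3p), -0.14 to 0.56 (miR-200a-3p), -0.57 to 0.28 (miR-200b-3p) and -0.16 to 0.57 (miR-200c-3p). Between fragments, they were -0.23 to 6.41 (miR-429-3p) and -1.66 to 4.93 (miR-141-3p) for the diapaused effect, and -0.99 to 6.41 (miR-429-3p) and -0.51 to 6.25 (miR-141-3p) for the mTORi effect.

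Scaling moved the median of all tested miRNAs by over 0.1 in several comparisons. For diapaused minus WT it was -0.02 in polar and -0.05 in mural fragments with RLE factors, and -0.09 in mural fragments with library size. With library size it was 0.04 for polar mTORi minus WT, 0.20 for averaged polar minus mural, and 0.36 and 0.19 for polar and mural diapaused minus mTORi.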
